A study of Mus musculus with 6 samples.

Results

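The genes examined were the nuclear genes of respiratory complexes II to V: succinate dehydrogenase (complex II), the cytochrome bc1 complex with its carrier cytochrome c (complex III), cytochrome c oxidase (complex IV) and ATP synthase (complex V). Members were taken by gene symbol from the array's annotation: every symbol beginning with Sdh, Uqcr, Cox followed by a digit, or Atp5, and also Cyc1 and Cycs. That gave 60 of the 19938 genes with a probe set of a single symbol: 8 for complex II, 10 for complex III with cytochrome c, 25 for complex IV and 17 for complex V. Of these, 12 encode assembly factors (4 for complex II and 8 for complex IV), which build a complex without staying in it. Cox7c and Cox16 share their probe sets with a second symbol and were not used here, and the subunits encoded in mitochondrial DNA were not analysed here.

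Expression was measured in gastrocnemius, a calf muscle, in wild type animals and in mice homozygous for a knockout of Sparc, the gene of a secreted collagen-binding matrix protein. Each group held 3 arrays of males aged 12 weeks, and 1 array was taken as 1 mouse, since the series' design text refers to the mice singly. All 6 arrays carry the strain label B6;129S-Sparctm1Hwe/J, a mixed B6 and 129S background, wild types included. Littermate status, and which part of Sparc the allele removes, are not in the labels. Sparc read 11.80, 11.73 and 11.87 in the wild types and 6.74, 6.46 and 5.83 in the knockouts on the log2 scale (limma adjusted p = 2.08e-05), so every array matched its label. The median intensity per array was 40.5 to 44.7, and the median SD per gene was 0.0912 in wild types and 0.163 in knockouts. On the first principal component (46.7% of the variance) knockout array 2 was the knockout closest to the wild types. Muscle fibre markers were bright on all arrays, with the dimmest of 10 at a mean of 11.09.

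Electrons taken from succinate by complex II pass through ubiquinone to complex III, by cytochrome c to complex IV and so to oxygen. Complexes III and IV pump protons, and complex V uses the proton gradient to make ATP. Oxidative muscle fibres are rich in these complexes, and heart and skeletal muscle use their own isoforms of several complex IV subunits. Many of the nuclear genes are known targets of the transcription factors NRF1 and GABP (an ETS factor), which act with the coactivator Ppargc1a.

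Promoters are printed for genes on which the results below turn: Sdha, Cox14 and Atp5e, the members with the smallest p in complexes II, IV and V, Cycs as the electron carrier, and the c-ring genes Atp5g1, Atp5g2 and Atp5g3, which encode one mature protein from separate promoters. Each line gives the 120 bases before the annotated start, 5′ to 3′, from RefSeq on GRCm38.p6. Capitals mark matches to the short NRF1 core GCATGCGC, the long NRF1 core (the short one with GC before it, so every long match holds a short one), the GABP/ETS core CCGGAAG or the YY1 core AAGATGGC on either strand.
Sdha: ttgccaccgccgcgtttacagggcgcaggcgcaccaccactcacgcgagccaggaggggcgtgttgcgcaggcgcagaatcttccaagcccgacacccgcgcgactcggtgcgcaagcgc
Cycs: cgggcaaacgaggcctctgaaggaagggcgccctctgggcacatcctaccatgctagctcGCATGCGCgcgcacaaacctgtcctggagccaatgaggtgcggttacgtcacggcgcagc
Cox14: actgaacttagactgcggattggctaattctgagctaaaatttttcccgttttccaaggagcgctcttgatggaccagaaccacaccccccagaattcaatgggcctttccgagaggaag
Atp5e: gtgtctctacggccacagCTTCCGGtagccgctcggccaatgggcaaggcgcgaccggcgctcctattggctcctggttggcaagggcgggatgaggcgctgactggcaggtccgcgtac
Atp5g1: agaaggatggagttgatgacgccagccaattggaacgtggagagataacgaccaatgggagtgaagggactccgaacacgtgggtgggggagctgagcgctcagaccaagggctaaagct
Atp5g2: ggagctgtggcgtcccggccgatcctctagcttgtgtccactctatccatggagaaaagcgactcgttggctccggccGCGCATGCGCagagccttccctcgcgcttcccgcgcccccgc
Atp5g3: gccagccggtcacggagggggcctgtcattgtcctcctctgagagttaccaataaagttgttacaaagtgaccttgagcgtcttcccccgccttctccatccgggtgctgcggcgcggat
The positions are chr13:74350241-74350360 (minus strand) for Sdha, chr6:50566570-50566689 (minus strand) for Cycs, chr15:99725498-99725617 (plus strand) for Cox14, chr2:174464102-174464221 (minus strand) for Atp5e, chr11:96075632-96075751 (minus strand) for Atp5g1, chr15:102671048-102671167 (minus strand) for Atp5g2 and chr2:73911327-73911446 (minus strand) for Atp5g3. Atp5g2 alone of the c-ring genes holds the long NRF1 core in the printed stretch, Cycs holds the short one, Atp5e holds the GABP/ETS core on the opposite strand, and the other printed stretches hold none of the 4 motifs. A window from 250 bases before to 50 after the start was given for 46 of the 60 members. In it, CCGGAAG stood in 20 members (43.5%) against 9.93% of all 27025 genes with such a window. The short NRF1 core stood in 8 members (17.4%) against 3.05%, the long one in 4 (8.70%) against 1.07%, and AAGATGGC in 5 (10.9%) against 3.19%. These are matches of letters and do not show binding.

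No member of complexes II to V passed the test for a difference between genotypes. By limma 0 of the 59 members tested had an adjusted p under 0.05, where 0.995% of all 16487 genes tested did, 0.673% lower and 0.321% higher in the knockouts. The smallest adjusted p was 0.0829. An unadjusted p under 0.05 was found for 12 members (20.3%), against 18.4% of all genes. All 12 had lower knockout means, as did 10.3% of all genes, and 0 had higher ones, against 8.16%. In 12 members (20.3%) the groups did not overlap and the knockouts were the lower one, which held for 13.8% of all genes. In 0 members were they the higher one without overlap, against 11.1% of all genes. The 60th member, Cox7b2, a testis isoform, lay under the limit for dim probe sets (3.90) in both groups, at means of 2.89 and 2.88, and was not tested. The 12 members at an unadjusted p under 0.05 became 5 without wild type array 1 and 6 without knockout array 3.

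The knockout mean was below the wild type mean in 44 of the 59 members, against 50.0% of all genes. The median log2 change, knockout minus wild type, was -0.10 over the members and 5.34e-05 over all genes tested. By complex it was -0.28 for complex II, -0.10 for complex III with cytochrome c, -0.10 for complex IV and -0.05 for complex V. In 37 of the 59 members the change was smaller than 0.15 in either direction, and the median standard error of a member's change was 0.0973. Without wild type array 1 the medians were -0.21, -0.06, -0.06 and 0.01, so that of complex V turned positive. The complex III median was also -0.06 without knockout array 1, and the complex V median was -0.09 or -0.10 without wild type array 2 or 3 and -0.02 without knockout array 3. Single changes ran from -0.50 in Atp5e to 0.18 in Cox6a1. Of the 25 members with a mean log2 level over 11, 64% had negative changes, with a median of -0.03. All 244 genes tested over that level had 68.4% negative and a median of -0.08. The 34 members at 11 or less had 28 negative changes (82.4%) and a median of -0.13. The part of signal level in these changes was not tested. In RNA of whole muscle, fewer cells of a type and less RNA per cell cannot be told apart.

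**Figure D1:**
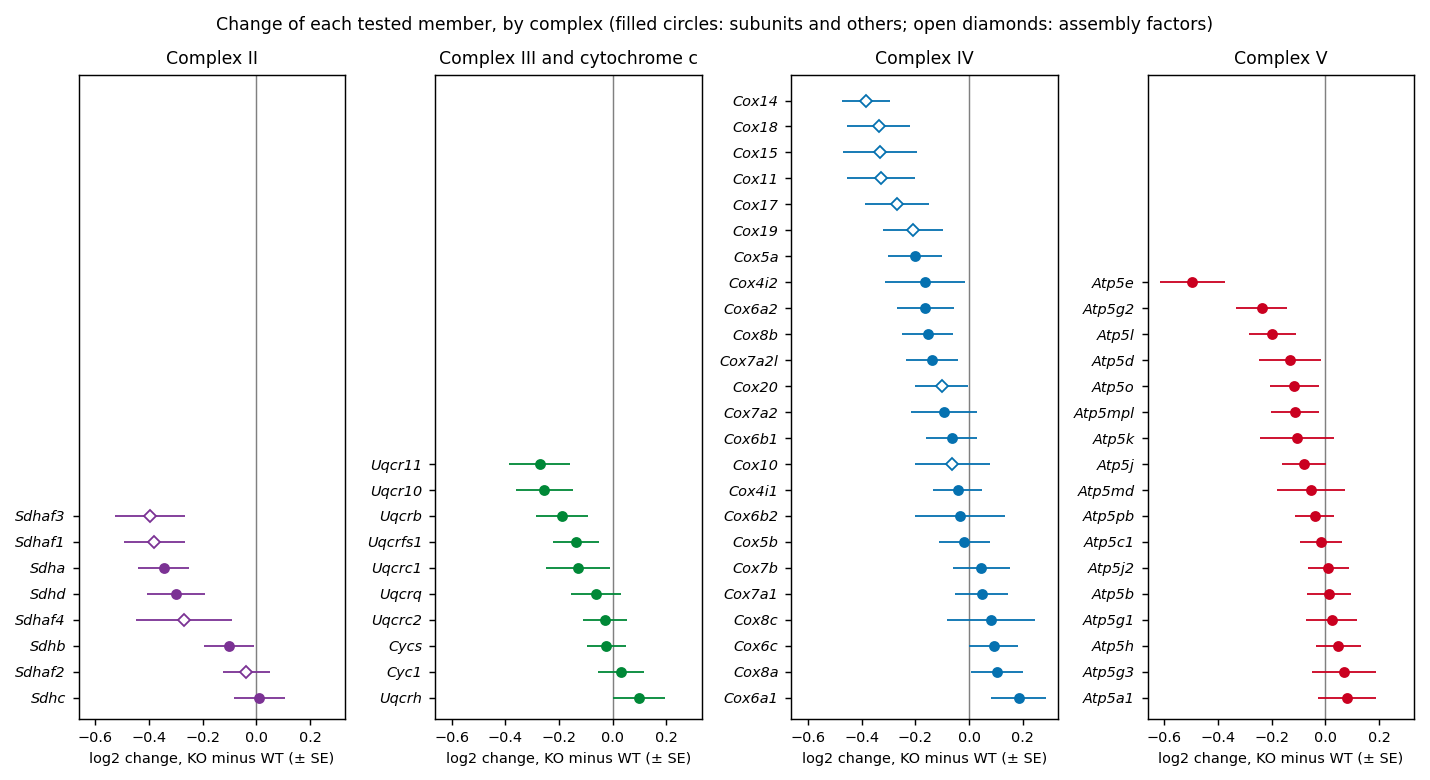
Log2 change, knockout minus wild type, with its standard error (bars) for each of the 59 members tested, 1 panel per complex, sorted within the panel. Filled circles are subunits and carriers and open diamonds are assembly factors, all 12 of which lie left of the line at 0, from -0.40 to -0.04.

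Complex II had the most negative median. Sdha, the flavoprotein that oxidises succinate and also serves the citric acid cycle, read 11.36, 11.49 and 11.37 in the wild types and 10.91, 11.18 and 11.10 in the knockouts. All knockout values lay below all wild type values, 1.27-fold lower in the mean, and the change was -0.34 ± 0.09 (SE) with a limma adjusted p of 0.119. Without knockout array 2 it passed the threshold, at -0.40 and an adjusted p of 0.0418. In that fit 2 of the 59 members passed, as did 1017 of all 16487 genes, against 164 with all arrays in. Sdhd, the small membrane anchor, read 10.59, 10.43 and 10.49 against 10.22, 10.37 and 10.02, again without overlap (change -0.30 ± 0.11 SE, adjusted p = 0.189). The other anchor, Sdhc, did not share that difference in its values. It read 10.65, 10.55 and 10.61 against 10.54, 10.78 and 10.52, a change of 0.01 ± 0.10 (SE), which was -0.03 after median centring. Sdhb, the iron-sulphur subunit between the flavoprotein and the anchors, read 11.09, 10.98 and 10.91 against 10.80, 11.02 and 10.84 (change -0.10 ± 0.09 SE). The 4 subunits of one complex thus had changes between -0.34 and 0.01, and whether those differ from one another was not tested.

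Sdhaf1 and Sdhaf3 act in the maturation of the iron-sulphur subunit Sdhb. Sdhaf1 read 7.17, 6.81 and 6.89 in the wild types and 6.65, 6.54 and 6.54 in the knockouts, with no overlap (change -0.38 ± 0.12 SE, limma adjusted p = 0.140). Sdhaf3 read 7.60, 7.49 and 7.52 against 7.23, 7.33 and 6.86, also with no overlap (change -0.40 ± 0.13 SE, adjusted p = 0.160). Knockout array 3 held the lowest value of Sdhaf3, without which the change was -0.26. Sdhaf2, which attaches the flavin to Sdha, had a change of -0.04 ± 0.09 (SE). Sdhaf4, which helps Sdha join Sdhb, had a change of -0.27 ± 0.18 (SE) in its brighter probe set and 0.02 in its dimmer one, which lay at a mean of 4.87, near the limit for dim probe sets.

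In complex III the lowest changes were those of the small accessory subunits Uqcr10 and Uqcr11. Uqcr10 read 10.43, 10.13 and 10.09 in the wild types and 9.97, 9.97 and 9.94 in the knockouts, and Uqcr11 read 9.58, 9.24 and 9.22 against 9.11, 9.03 and 9.09. Neither overlapped between the groups, and wild type array 1 stood well above the other wild types in both. Their changes were -0.25 ± 0.11 and -0.27 ± 0.11 (SE; limma adjusted p = 0.255 and 0.253). Without wild type array 1 they were -0.15 and -0.15. The second probe set of Uqcr11, equal in mean level, gave -0.12 with overlapping groups. Uqcrb, another accessory subunit, had a change of -0.19 ± 0.10 (SE), with knockout array 1 at 12.26 among the wild types (12.21 to 12.36) and knockout arrays 2 and 3 at 12.04 and 11.96.

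The accessory subunit Uqcrq had a change of -0.06 ± 0.09 (SE). Of the electron-carrying members, Uqcrfs1, the Rieske iron-sulphur protein, read 10.00, 9.96 and 9.88 against 9.75, 9.88 and 9.79 (change -0.14 ± 0.09 SE). Cyc1, cytochrome c1, read 9.45, 9.47 and 9.39 against 9.38, 9.52 and 9.50 (change 0.03 ± 0.09 SE, or -0.01 after median centring). Cycs, cytochrome c, which carries electrons to complex IV, read 12.26, 12.21 and 12.18 against 12.23, 12.19 and 12.16, with overlapping groups and a change of -0.02 ± 0.07 (SE), or 0.06 after a second quantile normalization. The core proteins Uqcrc1 and Uqcrc2 had changes of -0.13 ± 0.12 and -0.03 ± 0.08 (SE), with Uqcrc1 low in knockout array 1 alone (10.11 against 10.42 to 10.54 elsewhere). Uqcrh, the hinge protein, had the highest change of complex III, 0.10 ± 0.10 (SE).

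In complex IV, which was divided by role after its values were seen, all 8 assembly factors had negative changes, with a median of -0.30, while its 15 tested subunits had a median of -0.03, with 9 negative and 6 positive. Of the assembly factors 4 (50%) had an unadjusted p under 0.05, and of the subunits 0 did. Of all genes, 10.3% had such a p with a lower knockout mean and 8.16% with a higher one. Cox14, needed early in the assembly of the catalytic subunit Cox1, had the smallest p of all members. It read 8.82, 8.70 and 8.64 in the wild types and 8.32, 8.36 and 8.34 in the knockouts, 1.31-fold lower, and its change was -0.38 ± 0.09 (SE) with a limma adjusted p of 0.0829. The knockout arrays lay close together and clear of the wild types.

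Cox18 and Cox20 handle the subunit Cox2, Cox18 by inserting it into the membrane. Cox18 read 7.78, 7.70 and 7.79 against 7.33, 7.65 and 7.27, with no overlap though knockout array 2 came close to the wild types (change -0.34 ± 0.12 SE, limma adjusted p = 0.182). It passed the threshold without knockout array 2, at -0.45 and an adjusted p of 0.0372, in the fit that called 1017 of all 16487 genes. Cox20 had a change of -0.10 ± 0.10 (SE). Copper reaches the enzyme through Cox17, Cox11 and Cox19. Cox11 read 8.23, 8.09 and 8.04 against 7.54, 7.90 and 7.95, with no overlap and knockout array 1 lowest (change -0.33 ± 0.13 SE, adjusted p = 0.217), and it was at -0.20 without that array. Cox17 and Cox19 had changes of -0.27 ± 0.12 and -0.21 ± 0.11 (SE), with overlapping groups. Haem A is made by Cox10 and Cox15 in turn. Cox15 had a change of -0.33 ± 0.14 (SE), with knockout array 2 (7.02) at the level of wild type array 1 (7.01), and Cox10 one of -0.06 ± 0.14 (SE).

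Among the complex IV subunits Cox5a had the lowest change. It read 10.47, 10.32 and 10.28 in the wild types and 10.03, 10.29 and 10.16 in the knockouts (change -0.20 ± 0.10 SE, limma adjusted p = 0.335). Cox5b, in contrast, had a change of -0.02 ± 0.09 (SE), and Cox6c and Cox7b had changes of 0.09 ± 0.09 and 0.05 ± 0.11 (SE). Cox7a2l, which links complexes III and IV into supercomplexes, had a change of -0.14 ± 0.10 (SE). The testis isoforms Cox6b2 and Cox8c were dim, at 4.35 to 4.94 and 4.85 to 5.49 over all arrays, and their groups overlapped.

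Several complex IV subunits exist as a form of heart and muscle and a common form, also called the liver form. Cox6a1, the common form of subunit 6a, had the highest change of all members with all arrays in. It read 9.07, 9.11 and 9.08 in the wild types and 9.44, 9.11 and 9.27 in the knockouts (change 0.18 ± 0.10 SE, limma adjusted p = 0.382). Knockout arrays 1 and 3 lay above the wild types and knockout array 2 at the level of wild type array 2. Without knockout array 1 its change was 0.10, below the 0.20 of Atp5a1 and the 0.19 of Atp5g3. Its muscle counterpart Cox6a2 read 11.88, 11.82 and 11.81 against 11.66, 11.88 and 11.48 (change -0.16 ± 0.11 SE), with the same knockout arrays below the wild types. The within-array log2 difference, Cox6a2 minus Cox6a1, was 2.80, 2.71 and 2.73 in the wild types and 2.22, 2.77 and 2.21 in the knockouts. Its mean was lower by 0.35 in the knockouts (exact two-sided permutation p = 0.30). The smallest p that 3 against 3 arrays allow is 0.10, so this test could not reach 0.05 for any pair.

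The other muscle and common pairs matched this only in part. For subunit 8, Cox8b, the muscle form, read 11.91, 11.77 and 11.71 against 11.72, 11.70 and 11.51, and Cox8a, the common form, read 8.03, 8.06 and 8.07 against 8.27, 8.01 and 8.18. Again knockout arrays 1 and 3 stood above the wild types for the common form, and knockout array 2 did not. The mean balance of Cox8b to Cox8a differed by -0.26 (exact permutation p = 0.20, n = 3 each). For subunit 7a the difference had the other sign. Cox7a1, the muscle form, had a change of 0.05 ± 0.10 (SE) and Cox7a2, the common form, one of -0.09 ± 0.12 (SE), a difference of 0.14 (exact permutation p = 0.20). Cox4i1 and Cox6b1, the common forms of their subunits, had changes of -0.04 ± 0.09 and -0.06 ± 0.10 (SE). Their balances to Cox4i2, known as the lung form, and to the dim Cox6b2 differed by 0.12 and -0.03 (exact permutation p = 0.60 and 1), with both signs under other settings.

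**Figure D2:**
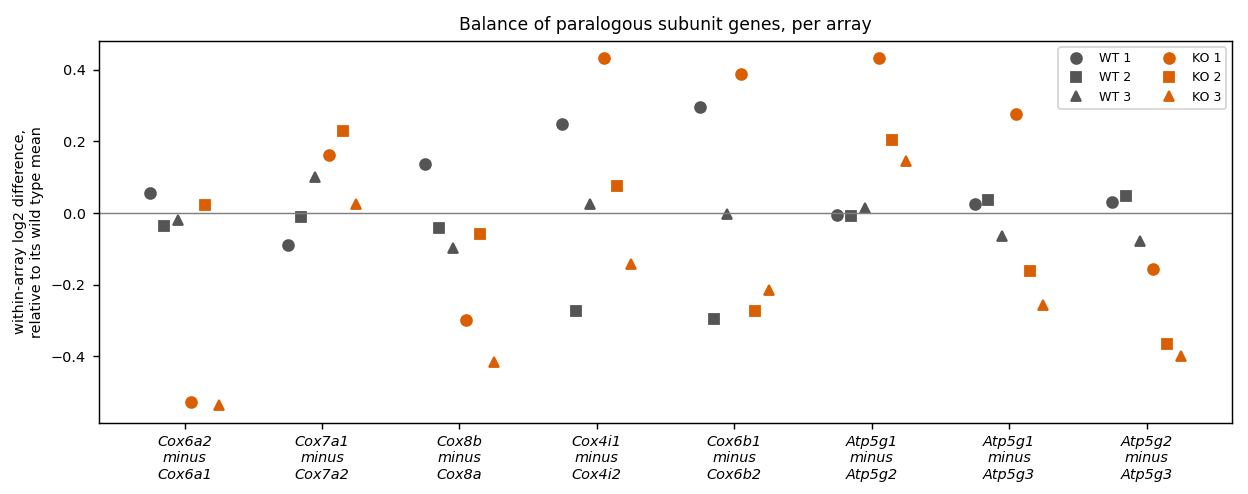
Within-array log2 difference between paralogous subunit genes, relative to the wild type mean of that difference, for each of the 8 pairs compared; grey symbols are wild type arrays, orange symbols knockout arrays, and symbol shape gives the replicate number. Both balances with Atp5g2 separate the groups, and knockout arrays 1 and 3 stand apart for Cox6a2 minus Cox6a1.

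In complex V the subunit c of the membrane ring comes from 3 genes. Atp5g2 read 11.83, 11.65 and 11.60 in the wild types and 11.36, 11.58 and 11.43 in the knockouts, all below the wild types in this probe set, though not in 1 of its other 2 (difference -0.24 ± 0.10 SE, limma adjusted p = 0.236). Atp5g1 read 12.43, 12.25 and 12.22 against 12.40, 12.39 and 12.18 (change 0.02 ± 0.09 SE, or -0.02 after median centring), and Atp5g3 read 10.92, 10.74 and 10.81 against 10.65, 11.07 and 10.96 (change 0.07 ± 0.12 SE). The groups of both overlapped. The balance Atp5g2 minus Atp5g3 was 0.90, 0.92 and 0.79 in the wild types and 0.71, 0.51 and 0.47 in the knockouts, a difference in means of -0.31 with no overlap. The balance Atp5g1 minus Atp5g2 was 0.60, 0.60 and 0.62 against 1.04, 0.81 and 0.75, a difference in means of 0.26 with no overlap. Both reached p = 0.10, the smallest p the exact permutation test allows here, and 0.40 after adjustment over the 8 pairs compared. The balance Atp5g1 minus Atp5g3 differed by -0.05 (exact permutation p = 0.90). Atp5g2 is the c-ring gene with the NRF1 core in the promoter printed above, and a link between that match and its level was not tested.

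The largest change of all members was in Atp5e, the epsilon subunit of the F1 rotor. It read 9.80, 9.53 and 9.44 in the wild types and 9.23, 8.96 and 9.10 in the knockouts, 1.41-fold lower in the mean with no overlap (change -0.50 ± 0.12 SE, limma adjusted p = 0.0933). Without wild type array 1, the highest, the change was -0.39. The other F1 genes did not share it in their values. Atp5a1, the alpha subunit, read 11.55, 11.62 and 11.58 against 11.43, 11.80 and 11.77, the highest change of complex V at 0.08 ± 0.11 (SE). Atp5b, the catalytic beta subunit, read 12.33, 12.37 and 12.33 against 12.24, 12.46 and 12.37 (change 0.01 ± 0.08 SE, or -0.03 after median centring). Atp5c1, the gamma subunit of the central stalk, and Atp5d, the delta subunit, had changes of -0.02 ± 0.08 and -0.13 ± 0.12 (SE).

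Of the remaining stalk and membrane genes of complex V, Atp5l had the lowest change. Atp5l, subunit g of the membrane part, read 11.83, 11.69 and 11.63 against 11.59, 11.45 and 11.52, with no overlap (change -0.20 ± 0.09 SE, limma adjusted p = 0.272). Its 6 probe sets gave changes of -0.21 to -0.17. The peripheral stalk genes Atp5pb, Atp5h, Atp5j and Atp5o had changes of -0.04, 0.05, -0.08 and -0.12. The small membrane subunits Atp5j2, Atp5k, Atp5md and Atp5mpl had changes of 0.01, -0.10, -0.05 and -0.11.

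The arrays did not fall into clean groups over the members as a whole. Relative to the wild type mean, the median over the 59 members was 0.09, -0.04 and -0.07 in wild type arrays 1, 2 and 3 and -0.10, -0.04 and -0.12 in knockout arrays 1, 2 and 3. Wild type array 1 was the highest wild type in 48 of the 59 members and the highest of all arrays in 37. These counts were not made over all genes. The medians over all genes tested were -0.02, 0.02 and -0.0002 in wild type arrays 1, 2 and 3. Without wild type array 1, the median change of the members was -0.04, with 35 of 59 negative. Leaving out any other single array gave medians of -0.13 to -0.07, with 42 to 48 negative.

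**Figure D3:**
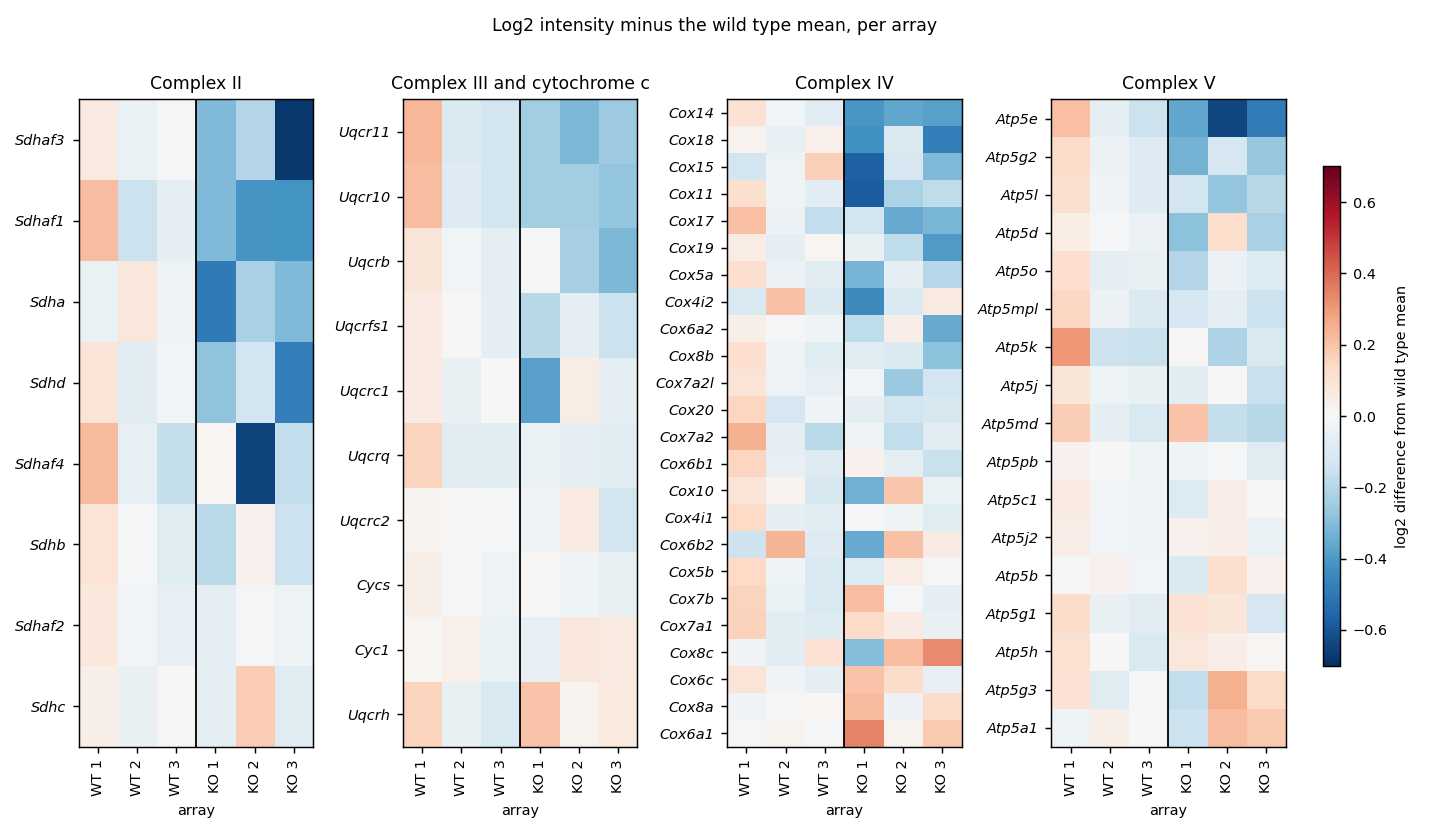
Log2 intensity minus the wild type mean for each tested member (rows) in each array (columns), 1 panel per complex, with red above and blue below the wild type mean. Wild type array 1 is red in most rows, and in the rows of Sdhaf1 and Cox14 all 3 knockout arrays are blue.

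The 12 assembly factors among the members lay lower in the knockouts than the other members did, a split by role made after the values were seen and so given without a test. All 12 had negative changes, with a median of -0.30, and 6 (50%) had an unadjusted p under 0.05. Of all genes, 10.3% had such a p with a lower knockout mean. The other 47 tested members had a median of -0.06, with 32 negative. Of them 6 (12.8%) were lower at an unadjusted p under 0.05, near the share of all genes. Per array the assembly factors stood at 0.09, -0.04 and -0.06 in the wild types and at -0.31, -0.19 and -0.31 in the knockouts. Over the 6 fits that leave out 1 array their median was -0.34 to -0.23, and 11 or 12 of them were negative. The median of the other members was -0.10 to -0.00 over the same fits, with the value nearest 0 without wild type array 1. Assembly factors gave dimmer signals, with mean levels of 5.85 to 9.65. The 8 other members in that range of levels had a median change of -0.10, with 2 (25%) lower at an unadjusted p under 0.05. All 9254 genes tested in that range had a median of -0.02, with 54.6% negative and 14.3% lower at such a p. The part of signal level in the difference by role was not tested.

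Related genes outside the symbol rule were set beside the members. A list of 28 tested genes for the assembly and regulation of complexes II to V had 25 negative changes and a median of -0.19. By limma 0 of them passed the adjusted threshold, where 0.995% of all genes did. An unadjusted p under 0.05 was found for 11 (39.3%), all 11 with lower knockout means, against 10.3% of all genes. The smallest p in the list was that of Higd1a, a small inner membrane protein, at -0.64 ± 0.12 (SE) and an adjusted p of 0.0523. Lyrm7, a chaperone that matures the Rieske protein Uqcrfs1, was next at -0.59 ± 0.11 (SE) and an adjusted p of 0.0550. Ndufa4, named for complex I but known as a subunit of complex IV, was also in this list and had a change of -0.01 ± 0.08 (SE). The 13 genes for transcription of respiratory genes had a median of -0.06, with 0 past the adjusted threshold. An unadjusted p under 0.05 came with a lower knockout mean in 3 (23.1%) and a higher one in 1, against 10.3% and 8.16% of all genes. Among them the coactivator Ppargc1a read 9.31, 9.47 and 9.06 in the wild types and 9.85, 9.71 and 9.59 in the knockouts, all above (change 0.44 ± 0.12 SE, adjusted p = 0.122). The mitochondrial transcription factor Tfb2m had a change of -0.37 ± 0.13 (SE) at an adjusted p of 0.175.

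Complex I, the entry point for electrons from NADH, offered the nearest comparison. The 43 genes with Nduf symbols, Ndufa4 among them, had 38 negative changes and a median of -0.15. A lower knockout mean at an unadjusted p under 0.05 was found for 8 (18.6%), against 10.3% of all genes. In 13 (30.2%) the knockouts were lower without overlap, against 20.3% of the members and 13.8% of all genes. The 36 that are not Ndufaf assembly factors had a median of -0.15 and the 7 Ndufaf genes one of -0.19. Wild type array 1 was again above the other wild types, at 0.13 against -0.04 and -0.06 over the 43 genes. Ndufs5, an accessory subunit, was the only one of the 43 called, where 0.995% of all genes were. It read 10.41, 10.30 and 10.26 in the wild types and 9.42, 9.38 and 9.06 in the knockouts, 2.05-fold lower (limma adjusted p = 0.00636). No member of complexes II to V had a change of that size.

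**Figure D4:**
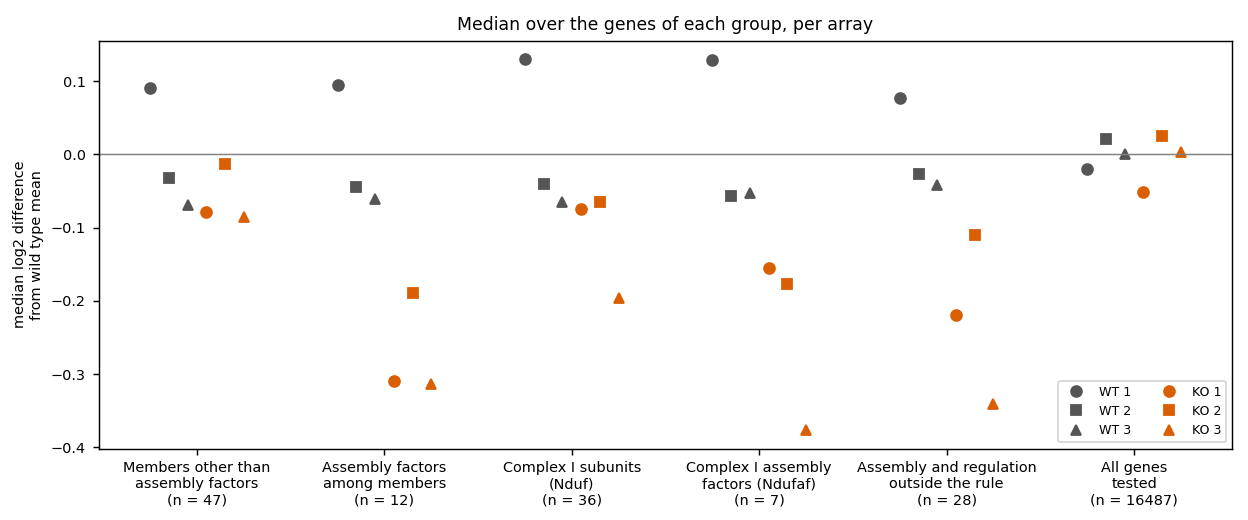
Median log2 difference from the wild type mean over the genes of each group, per array; grey symbols are wild type and orange symbols knockout arrays, and symbol shape gives the replicate number. The knockout arrays lie between -0.31 and -0.19 for the assembly factors among the members and between -0.09 and -0.01 for the other members, with wild type array 1 the highest array in each group other than all genes tested.

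Of the 60 members, 14 had more than 1 probe set. Their probe sets gave changes of the same sign in 12 genes. In Cycs, probe sets with mean levels of 5.60 and 12.21 gave changes of 0.02 and -0.02, and Sdhaf4 is described above. In Atp5g2, 3 probe sets gave changes of -0.24 to -0.22, and in the dimmest of them the groups overlapped, with knockout array 2 at 11.39 and wild type array 3 at 11.38, and in Uqcrb 3 gave -0.19 to -0.16. Processed copies of several of these short genes exist in the mouse genome, and the files do not say which copy a probe set reads, so probe sets of one gene are not independent measurements.

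Markers of other cells and of fibre types were read on the same arrays. By limma 1 of them passed the adjusted threshold, where 0.995% of all genes did. It was Myl3, 1 of the 10 slow or oxidative fibre markers. Myl3 read 9.25, 9.07 and 9.29 in the wild types and 7.86, 7.65 and 8.43 in the knockouts. It was 2.34-fold lower with no overlap (change -1.23 ± 0.18 SE, limma adjusted p = 0.0256). No macrophage, fibroblast and tendon, fast fibre, adipocyte, endothelial, erythroid, cardiac or general muscle fibre marker passed. The smallest adjusted p was 0.0858 among macrophage, 0.0593 among fibroblast and tendon, 0.149 among fast fibre and 0.102 among adipocyte markers. Of 9 fast glycolytic fibre markers, 9 had negative changes (median -0.21), and their summed intensity was 61348 to 62563 in wild types and 51362 to 59774 in knockouts. Of 10 slow or oxidative fibre markers 7 were negative (median -0.33), with sums of 8263 to 8863 against 5918 to 12698. Knockout array 3 was high in the slow fibre list, at 0.56, and knockout arrays 1 and 2 were low, at -0.45 and -0.91. Macrophage markers were positive in 9 of 9 (median 0.65; sums 2269 to 2533 against 3161 to 5746) and fibroblast and tendon markers in 11 of 11 (median 0.76; sums 13601 to 15531 against 16775 to 23941). Adipocyte markers had a median of -0.47 over 9 tested genes (sums 2318 to 4131 against 2382 to 2889). Wild type array 1, the highest wild type in 48 of the 59 respiratory members, was low in the adipocyte list, at a median of -0.69 against 0.26 and 0.37 in wild type arrays 2 and 3, and the knockouts stood at -0.32, -0.61 and -0.35. The brown fat marker Ucp1 was at 4.15 to 4.60 on all arrays, near the limit for dim probe sets. The 10 general muscle fibre markers had a median of 0.04 (sums 62972 to 64043 against 59241 to 67246), the 6 endothelial ones -0.00, the 4 cardiac ones 0.02 and the 2 tested of 4 erythroid ones -0.48. Of those 10 muscle fibre markers, 5 were lower in the knockouts without overlap and 3 higher, against 13.8% and 11.1% of all genes. No marker measured was at 0 or under the limit for dim probe sets. The part of fibre type or cell mixture in the values of the respiratory genes was not tested.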

How the data were processed

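Total RNA of 6 gastrocnemius samples, 3 per genotype, was biotin-labelled for an Affymetrix mouse gene array. The deposited values are intensities; per the submitters' processing notes, the authors used RMA and Affymetrix Expression Console 1.3.0.187. They are linear (1.59 to 13565.8 over 35556 probe sets), so log2 was taken without an offset. Precision is limited by the number of arrays. There are no detection calls, and the build was one not given in the sources used here.

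Gene names came from the platform annotation, where 21789 probe sets had 1 symbol, 1621 had several and were not used, and 12146 were unnamed. The probe set with the highest mean over all arrays stood for a gene. Genes with a mean below percentile 25 of the probe set means (3.90) were dropped, leaving 16487. Genotypes were compared over all of them with limma 3.58.1 in R 4.3.3 (two-sided, eBayes with trend), with Benjamini-Hochberg adjustment and a threshold of 0.05. The fit was also run on simulated data with known added changes and, per gene, the same spread in both groups. The spread of the real groups differed, and no result above rests on that run. Balances of 8 paralogue pairs used an exact permutation test. P-values set the difference between genotypes against the spread between these arrays.

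The members, gene lists and tests were chosen with earlier results of these data known. Named in full were, in each complex, the 3 smallest p and the highest and lowest change, the paralogue pairs and the main catalytic or electron-carrying genes; in each pathway list the 2 smallest p. Members outside this rule are given by change or for completeness. Promoter windows were matched by gene ID to RefSeq. Replicate numbers are shared between groups, and the deviations of same-numbered arrays had correlations of -0.0201 to 0.0822.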

Additional observations from a re-analysis of the deposited data

How the results depend on the processing

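The count of members past the adjusted threshold was 0 in every alternative fit except those leaving out single arrays, where it ran from 0 to 2, the 2 being Sdha and Cox18 without knockout array 2. With the replicate block it stayed at 0, and the median of the members was -0.10. Correlations of same-numbered deviations were 0.00883, 0.0822 and -0.0201, and those of differently numbered ones ran from -0.0632 to 0.0456. Such values cannot show whether same-numbered samples share more than a number. Over all genes limma called 164, against 123 with the block, 103 after median centring, 329 with array weights, 27 to 32 without a wild type array and 1017 without knockout array 2. The median of the members kept its sign, at -0.14 to -0.048 under other settings and -0.13 to -0.036 with 1 array left out. That of complex II was -0.21 with all probe sets averaged and -0.33 to -0.21 with 1 array left out, and that of complex III was -0.037 with array weights. With 1 array left out, the medians of complexes III, IV and V ran from -0.12 to -0.056, -0.14 to -0.060 and -0.10 to 0.0094. The cause of these shifts was not tested. Among named members, signs turned only where the change was small: after median centring in Atp5b (-0.026), Atp5g1 (-0.018), Cyc1 (-0.012) and Sdhc (-0.030), with array weights in Cox6b2 (0.032), and after a second quantile normalization in Cycs (0.061). With 1 array left out the ranges were -0.036 to 0.072 in Atp5b, -0.016 to 0.094 in Atp5g1, -0.019 to 0.19 in Atp5g3, -0.080 to 0.028 in Cox4i1, -0.11 to 0.011 in Cox6b1, -0.15 to 0.13 in Cox6b2, -0.19 to 0.033 in Cox7a2 and -0.072 to 0.058 in Sdhc. Of the balances, Cox6b1 minus Cox6b2 and Atp5g1 minus Atp5g3 turned to 0.037 and 0.025 after a second quantile normalization. With 1 array left out they ran from -0.24 to 0.12 and from -0.21 to 0.057, and Cox4i1 minus Cox4i2 from -0.034 to 0.25. The balance Atp5g2 minus Atp5g3 stayed between -0.38 and -0.26 over its alternatives, and Atp5g1 minus Atp5g2 between 0.17 and 0.32. With 3 arrays per group the median standard error of a member's change was 0.0973.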
